A study of Mus musculus with 48 samples.

Results

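High fat diet (HFD) was compared with chow in mice that carry the interleukin-1 beta transgene called pL2. The comparison rests on 6 of the 48 arrays of the study, 3 of pL2 mice on HFD and 3 of pL2 mice on chow, all from the facility at Freising and all from animals of 12 months. Groups were taken from the genotype, diet and facility in the sample labels. Wild-type (WT) mice of the same facility and age, 3 on each diet, show the diet without the transgene, and pL2 and WT mice on chow from a second facility, MRI, supplied gene sets picked on other arrays. The study used these mice as a model of Barrett oesophagus, in which columnar lining replaces squamous lining at the junction with the stomach, and asked how diet acts on it. The labels used here give neither the composition of the diet nor the sex of the animals. Nothing in them says that the arrays of a group came from separate animals. The p-values measure the spread between arrays within a group, estimated over all 16 groups of the 48 arrays. Standard errors given below therefore need not reflect the spread of a gene within the 6 compared arrays.

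Interleukin-1 beta is a cytokine made mainly by macrophages and other myeloid cells, and it acts through NF-kB to raise chemokines that draw in neutrophils and monocytes. In the pL2 mouse the transgene is driven in squamous epithelium of the upper digestive tract, and both diet groups are of mice that carry it. A diet rich in fat is known from other tissues to raise macrophage numbers and to shift fatty acid use.

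RNA was taken from whole tissue of the junction, and the tissue label was checked against its defining genes. Squamous and gastric genes were both strong in all 6 arrays. Krt13, a keratin of suprabasal squamous cells, read 11.88, 11.32 and 12.08 on chow and 11.48, 11.49 and 11.65 on HFD (log2 signal, as are all levels below). Muc5ac, the mucin of gastric surface cells, read 12.34, 12.65 and 12.32 on chow and 12.34, 10.51 and 12.19 on HFD. The squamous suprabasal mean of 25 genes lay between 9.14 and 9.93 and the gastric pit mean of 8 genes between 10.83 and 11.84, whereas 13 skeletal muscle genes averaged 3.74 to 4.07 and 9 hepatocyte genes 4.33 to 4.89.

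The arrays of a diet group were not equally alike. Pairwise correlations over the tested genes ran from 0.948 to 0.967 on chow and from 0.933 to 0.982 on HFD, where HFD array 2 was the least like the others (0.933 to 0.954). This array was also the 1 of 6 whose title lacks a suffix that the other 5 carry, which none of the 6 WT arrays of Freising has; what the suffix stands for is not given in the sources used here. HFD array 2 was the highest of the 6 arrays in 4034 of 15242 genes. Chow array 1 was the highest in 2237 and carried by far the most smooth muscle RNA of the chow arrays, with a mean of 10.19 over 11 smooth muscle genes against 7.08 and 7.75. Results are therefore given with and without these 2 arrays where they bear on them, and their part in the results beyond that was not tested.

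Limma called none of 15242 genes at an adjusted p below 0.05 (background 0%), and the smallest adjusted p was 0.233. A limma fit of the 6 compared arrays alone also called 0, with a smallest adjusted p of 0.969. At an unadjusted p below 0.05, 627 genes were higher on HFD (4.11%) and 245 lower (1.61%), 872 in all. In 1026 genes all 3 HFD arrays lay above all 3 chow arrays (6.73%), and in 619 they lay below (4.06%). The difference was above 0 in 8043 genes (52.8%), with a median of 0.02 over all genes. Larger differences were mostly upward: 157 genes were at least 2-fold higher and 29 at least 2-fold lower, and of these 93 and 13 had groups that did not overlap. At 4-fold or more the counts were 8 higher and 1 lower, and 7 and 0 of these did not overlap. The 8 were Saa3, Retnlg, Retnla, Lyz1, Cxcl13, Mmp3, Clec4e and Grem1, and the 1 was BC018473, a clone-named gene chosen after its values were seen. BC018473 read 5.01, 6.65 and 6.40 on chow and 6.28, 2.35 and 2.73 on HFD, so HFD array 1 was at the chow level. The tilt towards higher values moved with the scaling: after cyclic loess the genes at an unadjusted p below 0.05 were 479 higher and 415 lower. Without HFD array 2 they were 444 and 329, and without chow array 1 they were 993 and 292, so the counts moved with both arrays.

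**Figure D1:**
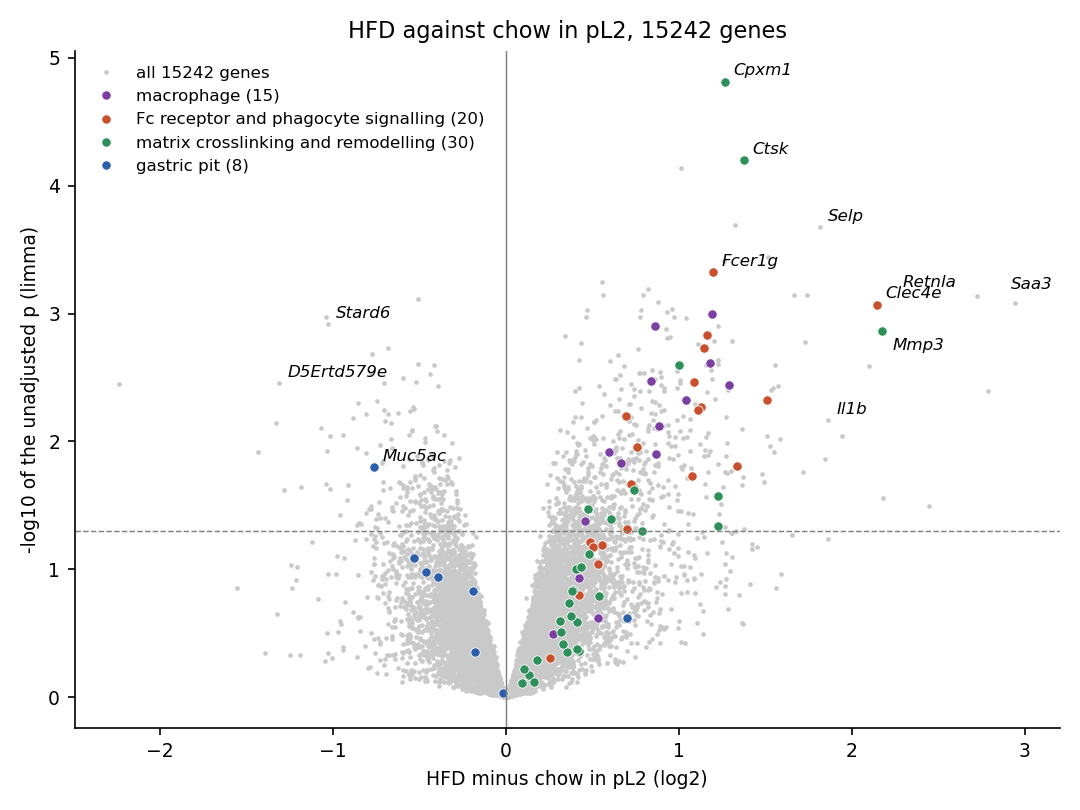
Each point is 1 of 15242 genes, with the HFD minus chow difference in pL2 mice (log2, x axis) against −log10 of the unadjusted limma p (y axis), and the dashed line marks a p of 0.05. The coloured macrophage (15 genes) and Fc receptor and phagocyte (20 genes) sets lie entirely to the right of 0, as do the 30 matrix genes, while 7 of the 8 gastric pit genes lie to the left.

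Cpxm1 and Ctsk had the smallest p-values among named genes. Cpxm1, a carboxypeptidase-like secreted protein, read 3.67, 2.87 and 2.89 on chow and 4.22, 4.91 and 4.10 on HFD. Its chow values lay below the array medians of 4.03 to 4.27, so its fold is taken against a low signal. All 3 HFD arrays were above all 3 chow arrays, and the difference was 1.27 ± 0.25 (SE; adjusted p = 0.233), 2.41-fold. Without chow array 1 it was 1.53, which limma called (adjusted p = 0.0316), and without HFD array 2 it was 1.02. Ctsk, cathepsin K, a collagen-degrading protease of osteoclasts and some macrophages and fibroblasts, read 4.03, 4.10 and 3.60 on chow and 5.49, 5.97 and 4.39 on HFD. The lowest HFD array, number 3, still lay above the highest chow array, and the difference was 1.38 ± 0.30 (adjusted p = 0.368). It became 1.82 ± 0.30 (adjusted p = 0.00945) when that array was left out. In WT mice the diet differences of these genes were 0.23 for Cpxm1 and −0.03 for Ctsk.

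Macrophage markers were higher on HFD in all 15 tested genes, with a median difference of 0.84 against 0.02 for all genes. Of the 15, 11 were higher at an unadjusted p below 0.05 against 4.11% of all genes, and 9 had groups that did not overlap against 6.73%; none passed adjustment. In whole tissue, a difference in the number of cells of a type and a difference in RNA per cell cannot be told apart. C1qb, which encodes a chain of the complement starter C1q and marks tissue macrophages, read 7.39, 7.18 and 6.69 on chow and 8.06, 8.84 and 7.94 on HFD. The groups did not overlap, with a difference of 1.19 ± 0.33 (adjusted p = 0.553) and 0.92 without HFD array 2. Its partner C1qa was 0.84 ± 0.27 higher. Ms4a7, a membrane protein of tissue macrophages, read 5.96, 6.69 and 5.41 on chow and 6.99, 7.64 and 6.96 on HFD. Again the groups did not overlap, and the difference was 1.18 ± 0.36 (adjusted p = 0.596). Msr1, a scavenger receptor for modified lipoproteins, was 0.86 ± 0.24 higher, but its lowest HFD array (3.98) lay below the highest chow array (4.05).

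HFD array 2 was the highest of the 6 arrays in 13 of the 15 macrophage genes. The mean of the 15 genes was 5.89, 5.80 and 5.47 on chow and 6.32, 6.99 and 6.18 on HFD, and 6.99 was the highest of all 48 arrays. HFD arrays 1 and 3 also lay above every chow array in this mean and in 9 of the 15 genes one by one, against 1871 of all 15242 genes. Without HFD array 2 the median difference was 0.41 and all 15 genes were still above 0. In that fit 5 were higher at an unadjusted p below 0.05, against 444 of all genes. Without both HFD array 2 and chow array 1 the median was 0.53, again with 15 above 0 and 5 at that p, against 837 of all genes. In WT mice the same genes had a median diet difference of −0.09, with 3 of 15 above 0. Their mean in WT mice was 5.75, 5.95 and 6.46 on chow and 5.80, 5.77 and 6.26 on HFD, so HFD arrays 1 and 3 of pL2 mice lay within the WT range and only HFD array 2 was above it.

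**Figure D2:**
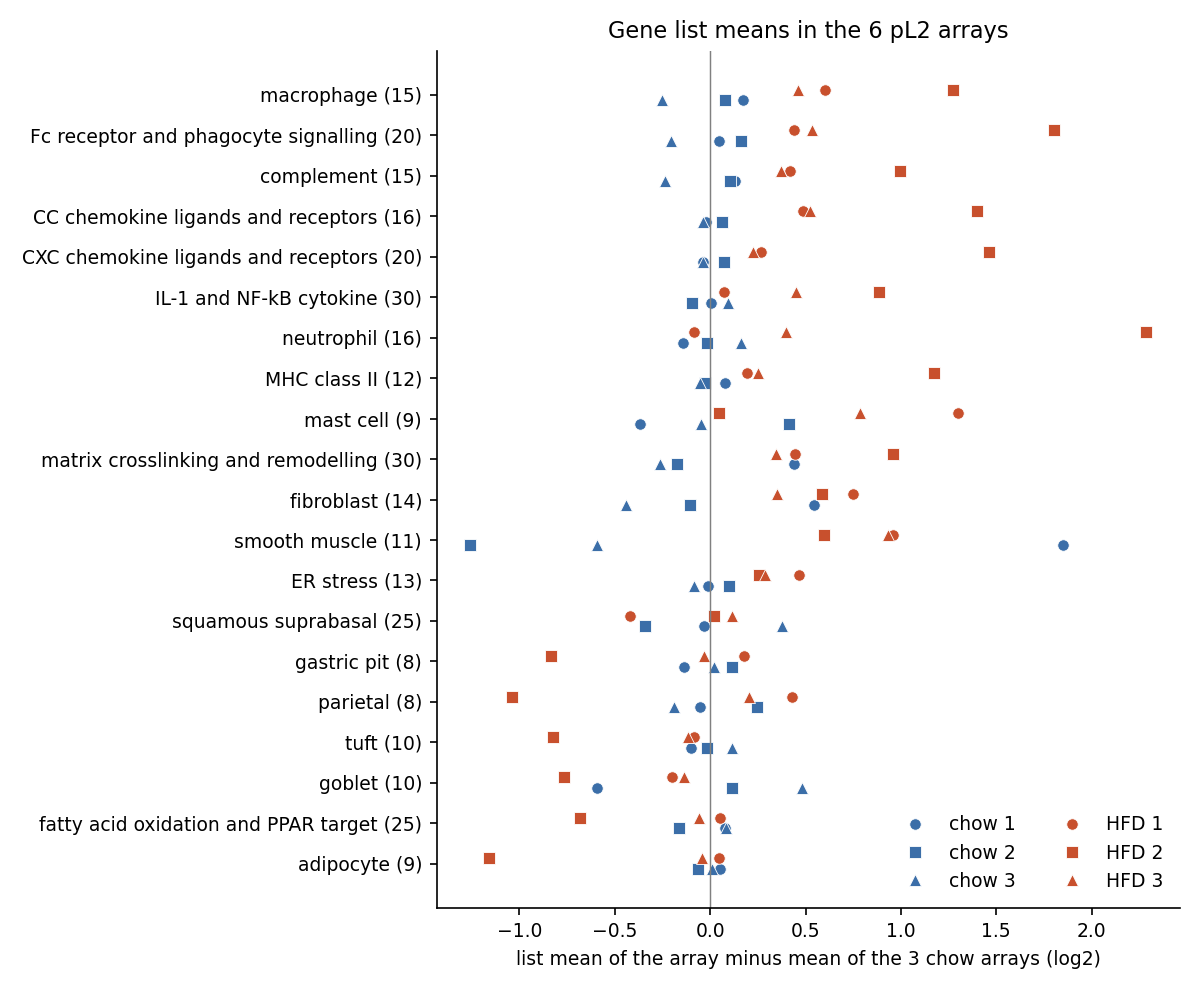
The mean log2 signal of each of 20 gene lists is plotted per array as the difference from the mean of the 3 chow arrays (x axis), with chow in blue, HFD in red, and circles, squares and triangles for arrays 1, 2 and 3. HFD array 2 (red square) is far to the right for neutrophil genes, while all 3 HFD arrays lie to the right of all chow arrays for macrophage and Fc receptor genes.

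Fc receptors bind antibody-coated targets and, with lectin receptors and their signalling adaptors, arm phagocytes to engulf them. All 20 tested genes of this list were higher on HFD, with a median of 0.92; 14 were higher at an unadjusted p below 0.05 (4.11% of all genes) and 13 had groups that did not overlap (6.73%). Fcer1g, the signalling chain shared by several Fc receptors, read 7.0, 7.10 and 6.68 on chow and 7.54, 8.90 and 7.93 on HFD. Every HFD array was above every chow array, by 1.20 ± 0.31 on average (adjusted p = 0.553) and by 0.81 without HFD array 2. Clec7a, the receptor for fungal beta-glucan, read 4.79, 4.62 and 4.09 on chow and 5.22, 6.54 and 5.23 on HFD, with a difference of 1.16 ± 0.34. Fcgr2b, the inhibitory Fc receptor, was 1.15 ± 0.34 higher, also without overlap. Without HFD array 2 the list's median was 0.49, with 19 of 20 above 0 and 4 higher at an unadjusted p below 0.05 (444 of all genes). In WT mice the median was −0.02.

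PU.1, encoded by Spi1, is the transcription factor that drives many myeloid genes, and its binding sequences contain the letters GAGGAAG. Spi1 itself read 5.33, 5.52 and 5.33 on chow and 5.69, 6.66 and 5.92 on HFD, a difference of 0.70 ± 0.24 (adjusted p = 0.681) without overlap. The letters GAGGAAG were searched on both strands in the 250 bases before the start of each gene in RefSeq (GRCm38.p6). They occurred in 7 of the 15 Fc receptor and phagocyte genes that have such a window (46.7%) and in 4 of 10 macrophage genes, against 3244 of 27025 genes overall (12.0%). These are matches of letters, and no binding was measured here. The shares describe lists chosen for their myeloid genes and do not bear on the diet difference. The 4 stretches shown are from members of the Fc receptor list, chosen after their values were seen because the letters lie within 120 bases of the start and the diet groups did not overlap. Each runs 5′ to 3′ on the strand of the gene up to the base before its start, and capitals mark GAGGAAG or its reverse complement CTTCCTC. Fcgr4, an activating Fc receptor, lies at chr1:171018806-171018925 on the plus strand, and Laptm5, a lysosomal protein of blood cells, at chr4:130913196-130913315 on the plus strand. Trem2, a lipid-sensing receptor of macrophages, lies at chr17:48346281-48346400 on the plus strand, and Pirb, an inhibitory receptor of myeloid cells, at chr7:3720383-3720502 on the minus strand.
Fcgr4: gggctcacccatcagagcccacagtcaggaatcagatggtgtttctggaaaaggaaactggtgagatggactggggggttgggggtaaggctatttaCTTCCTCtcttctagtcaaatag
Laptm5: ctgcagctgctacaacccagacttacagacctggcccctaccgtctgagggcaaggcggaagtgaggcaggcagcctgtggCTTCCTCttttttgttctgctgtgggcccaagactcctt
Trem2: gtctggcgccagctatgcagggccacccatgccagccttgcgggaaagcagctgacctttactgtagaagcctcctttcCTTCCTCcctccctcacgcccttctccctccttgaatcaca
Pirb: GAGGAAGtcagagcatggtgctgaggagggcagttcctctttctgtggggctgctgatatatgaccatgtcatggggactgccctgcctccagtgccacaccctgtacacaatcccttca

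The match in Fcgr4 begins 23 bases before the start, that in Laptm5 39, that in Trem2 41 and that in Pirb 120. Fcgr4 read 3.84, 3.59 and 3.78 on chow and 4.03, 5.89 and 4.67 on HFD, 1.13 ± 0.38 higher. Laptm5 read 6.68, 6.77 and 6.20 on chow and 6.97, 8.03 and 6.91 on HFD, 0.76 ± 0.28 higher. In both genes HFD array 2 was the highest and no HFD array overlapped with chow. Trem2 differed in that HFD array 1 was its highest: it read 4.09, 4.02 and 3.57 on chow and 4.68, 4.44 and 4.17 on HFD, 0.54 ± 0.31 higher (adjusted p = 0.909). Pirb was 1.11 ± 0.38 higher and 0.57 higher without HFD array 2.

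Other phagocyte genes were among the 12 of smallest p that were higher on HFD. That choice favours genes whose groups do not overlap, so the lack of overlap in them is not separate evidence. Clec4a3, a C-type lectin of monocytes, read 4.57, 4.53 and 4.43 on chow and 6.05, 7.06 and 5.42 on HFD, 1.67 ± 0.45 higher. Its chow arrays lay close together and all 3 HFD arrays were well above them, and the difference was 1.23 without HFD array 2. Cyth4, an exchange factor of small GTPases in blood cells, was 1.32 ± 0.32 higher, Ms4a14 1.01 ± 0.23 higher and Cd300ld, a myeloid surface receptor, 1.26 ± 0.32 higher, each without overlap. Ifi205, an interferon-inducible nucleic acid sensor of myeloid cells, read 5.62, 5.09 and 5.29 on chow and 7.20, 6.82 and 6.53 on HFD. Here HFD array 2 was not the highest, and the difference of 1.51 ± 0.38 stayed at 1.53 without it (adjusted p = 0.553 with all arrays).

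Selp encodes P-selectin, the adhesion molecule of activated endothelium and platelets that starts leukocyte rolling. It read 5.11, 4.96 and 4.54 on chow and 5.94, 7.67 and 6.44 on HFD. The groups did not overlap, and the difference of 1.82 ± 0.44 (3.52-fold, adjusted p = 0.553) was 1.32 without HFD array 2. Glycam1, a selectin ligand of lymph node vessels, was low on chow (3.36, 3.38 and 3.31) and read 4.21, 4.50 and 3.80 on HFD. General endothelial markers differed less, with all 11 above 0 in pL2 (median 0.32) and all 11 above 0 in WT mice as well (median 0.31). In pL2 the median was 0.05 without HFD array 1 and 0.15 without chow array 3.

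Retnla, a secreted marker of alternatively activated macrophages, had a difference of 2.73 ± 0.74, among the largest of the comparison. It read 4.35, 2.79 and 2.66 on chow and 6.52, 6.41 and 5.05 on HFD, so all HFD arrays were above chow, and without HFD array 2 the difference was 2.52. Its WT diet difference was −1.06, and WT mice on chow read 5.27, 5.21 and 6.56, well above pL2 mice on chow and level with pL2 mice on HFD. Retnlg, a relative of Retnla found in neutrophils, was by far the highest in HFD array 2, with 3.80, 2.88 and 3.91 on chow and 4.69, 8.83 and 5.44 on HFD. Saa3, an acute-phase serum amyloid made by inflamed epithelium and macrophages, had the largest difference among non-overlapping genes, 2.94 ± 0.81 (adjusted p = 0.553). It read 5.75, 7.58 and 5.76 on chow and 7.98, 11.20 and 8.74 on HFD, and was 2.0 higher without HFD array 2. Clec4e, a lectin that senses mycobacterial lipid and dead cells, was 2.15 ± 0.59 higher and 1.19 higher without that array.

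Neutrophil markers were above 0 in all 16 tested genes, with a median of 0.88, with 5 higher at an unadjusted p below 0.05 (4.11% of all genes). In 1 gene the groups did not overlap, a share near the 6.73% of all genes. HFD array 2 was the highest of the 6 arrays in 15 of the 16. Csf3r, the receptor of the neutrophil growth factor G-CSF, read 5.39, 6.46 and 4.93 on chow and 5.54, 9.05 and 6.31 on HFD. Only HFD array 2 stood above the chow range, and the difference of 1.37 ± 0.56 was 0.33 without it. S100a8, a subunit of calprotectin, read 8.73, 9.57 and 9.06 on chow and 8.71, 11.02 and 8.39 on HFD, so HFD arrays 1 and 3 were below all chow arrays. Without HFD array 1 the median of the 16 genes was 1.45. Without HFD array 2 it was 0.21, with 9 above 0 and 0 at an unadjusted p below 0.05, and without chow array 1 as well it was 0.01 with 8 above 0.

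CC chemokines, which act mainly on monocytes, eosinophils and lymphocytes, were above 0 in 15 of 16 genes with their receptors (median 0.84), and 10 had groups that did not overlap (6.73% of all genes). Ccl11, eotaxin, read 7.72, 7.51 and 6.85 on chow and 8.50, 9.25 and 8.01 on HFD, 1.23 ± 0.37 higher (adjusted p = 0.596). Ccl7, a monocyte attractant, read 4.77, 3.95 and 3.84 on chow and 5.10, 7.03 and 5.04 on HFD, 1.53 ± 0.50 higher and 0.88 without HFD array 2. Ccl8 was 1.16 ± 0.38 higher. Ccr2, the receptor that monocytes use to follow Ccl7 and Ccl2, was 0.99 ± 0.34 higher and 0.49 higher without that array. The median of the list was 0.51 without HFD array 2, with 13 of 16 above 0, and −0.19 in WT mice.

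CXC chemokines with their receptors were above 0 in 18 of 20 genes (median 0.62), but 4 had groups that did not overlap (6.73% of all genes) and HFD array 2 was the highest of the 6 arrays in 13. The neutrophil attractant Cxcl1 read 3.38, 3.36 and 3.83 on chow and 3.84, 5.56 and 3.41 on HFD, a difference of 0.75 ± 0.44 (adjusted p = 0.918) with overlapping groups and 0.10 without HFD array 2. Its neighbour Cxcl2 read 4.77, 4.96 and 5.0 on chow and 5.17, 8.52 and 5.19 on HFD. The groups did not overlap, yet the 2 remaining HFD arrays were barely above chow, and the difference of 1.38 ± 0.67 (adjusted p = 0.869) was 0.26 without HFD array 2. Cxcl5 was 0.89 ± 0.69 higher. Cxcr2, the receptor of these 3 ligands on neutrophils, read 7.03, 6.96 and 7.45 on chow and 6.59, 8.68 and 7.38 on HFD, and without HFD array 2 its difference was −0.16 in place of 0.40.

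Cxcr4 and Cxcl13 were laid out differently. Cxcr4, the receptor that guides leukocytes and stem cells along Cxcl12, read 5.58, 5.72 and 5.65 on chow and 6.48, 7.53 and 6.41 on HFD, 1.16 ± 0.36 higher and 0.79 without HFD array 2. All 3 HFD arrays lay well above the narrow chow range. Cxcl13, the B cell attractant of lymphoid follicles, read 4.15, 4.05 and 3.82 on chow and 6.36, 7.65 and 4.56 on HFD, 2.18 ± 0.95 higher. For the CXC list as a whole the median was 0.27 without HFD array 2 and 0.02 in WT mice.

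Binding sequences of NF-kB, which interleukin-1 signalling activates, often have the form GGGNNNTTCC. The form was counted in lists chosen for their pathway, so the shares do not bear on the diet difference. On both strands of the 250 bases before the start, this form occurred in 4 of the 15 CXC genes with a window (26.7%), in 2 of 11 CC genes (18.2%) and in 5 of 23 cytokine genes of the IL-1 and NF-kB list (21.7%), against 1434 of 27025 genes overall (5.31%). The windows of Cxcl1 and Cxcl2 are shown because these ligands were among the genes the study question names and both hold the form more than once, with capitals where either strand matches and overlapping matches merged. They lie side by side on the plus strand of GRCm38.p6, Cxcl1 at chr5:90891125-90891244 and Cxcl2 at chr5:90903779-90903898, each ending at the base before the start.
Cxcl1: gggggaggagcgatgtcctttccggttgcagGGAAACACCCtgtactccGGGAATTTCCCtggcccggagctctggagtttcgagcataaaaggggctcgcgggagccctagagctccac
Cxcl2: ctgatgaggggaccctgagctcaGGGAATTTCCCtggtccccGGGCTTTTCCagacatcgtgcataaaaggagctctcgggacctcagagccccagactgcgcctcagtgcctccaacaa

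Both windows share the run GGGAATTTCCC, in which the form matches on either strand. The match sits 71 bases before the start in Cxcl1 and 97 in Cxcl2.

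Cytokines and mediators of the IL-1 and NF-kB list were above 0 in 27 of 30 (median 0.39), and 8 were higher (4.11% of all genes) and 1 lower (1.61%) at an unadjusted p below 0.05. Il1b read 5.56, 5.92 and 5.48 on chow and 6.13, 9.63 and 6.79 on HFD. All HFD arrays lay above chow, but array 2 was far above the other 2, and the difference of 1.86 ± 0.65 (adjusted p = 0.689) was 0.80 without it. Whether the probes read the transgene, the mouse gene or both is not given in the sources used here. The receptor Il1r1 (0.14 ± 0.22) and the receptor antagonist Il1rn (0.42 ± 0.35) had smaller differences, with overlapping groups. Tnf was 0.87 ± 0.34 higher and the NF-kB inhibitor Tnfaip3 0.68 ± 0.29 higher, both without overlap. The member below 0 at that p was Il18, an epithelial cytokine, at −0.81 ± 0.31, and it was −0.08 without HFD array 2. Without that array the list's median was 0.20, with 24 of 30 above 0 and 1 higher at an unadjusted p below 0.05 (444 of all genes). Il1r1, Il1rn, Tnf, Tnfaip3 and Il18 were chosen after their values were seen.

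**Figure D3:**
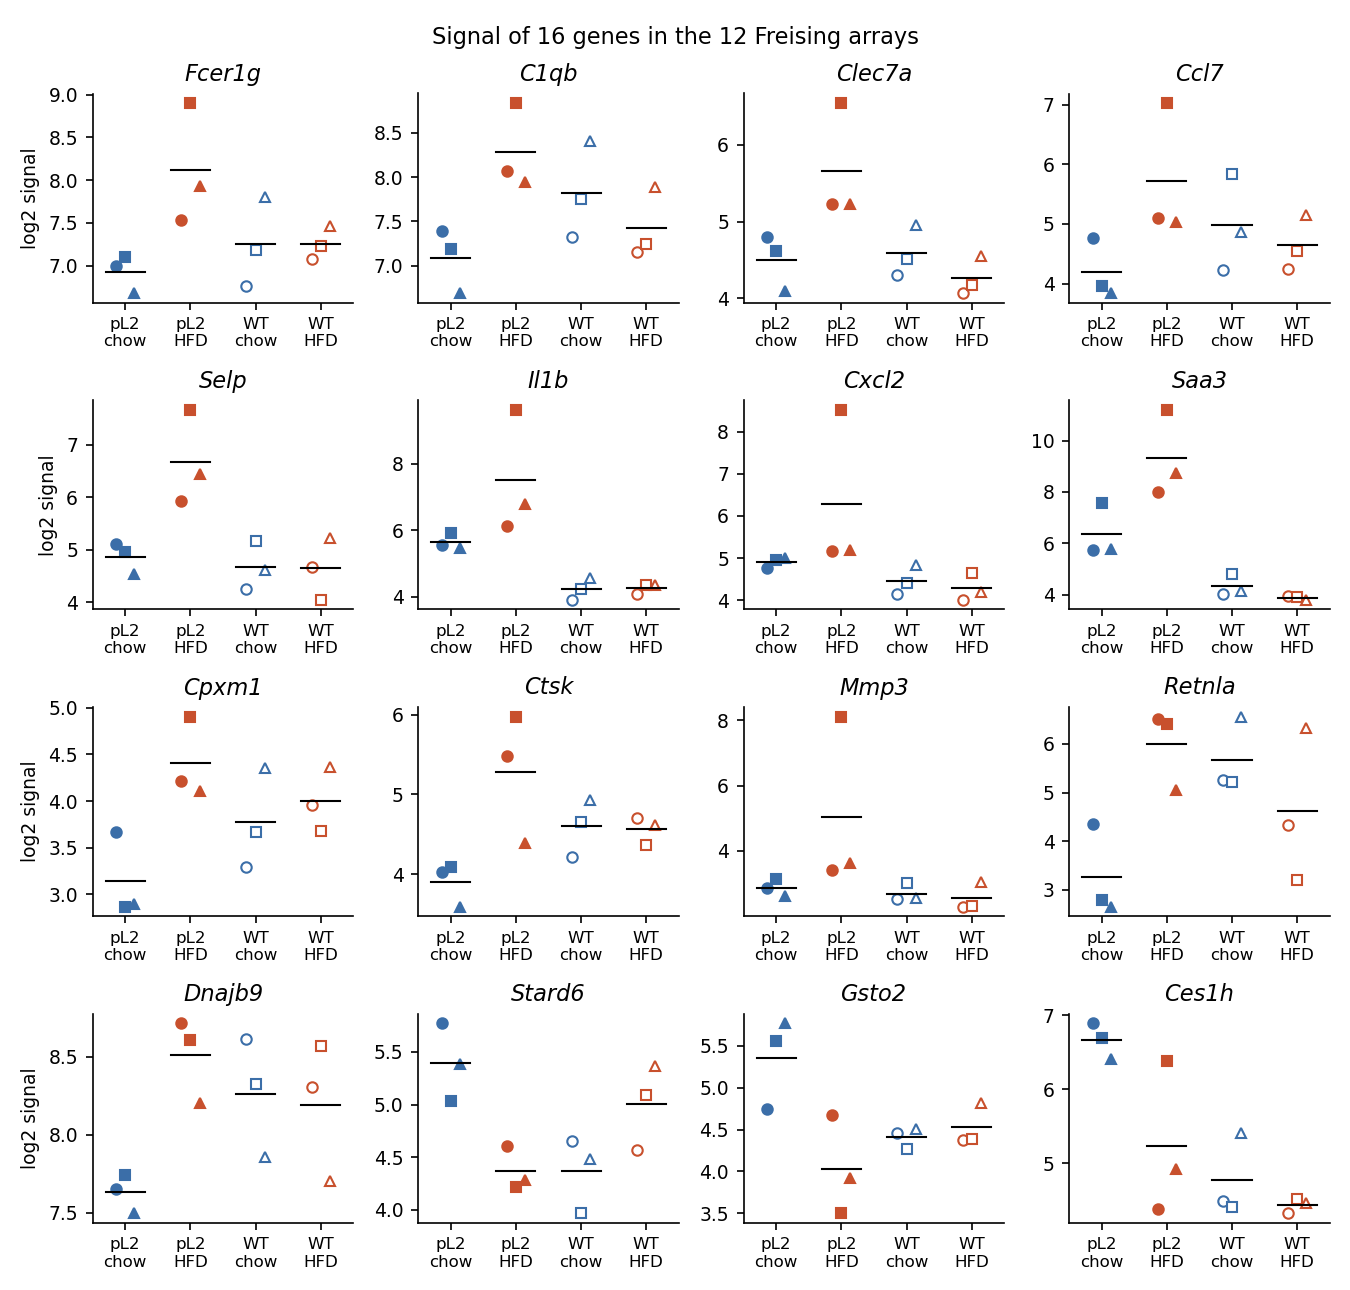
The log2 signal of 16 genes (y axis) is plotted in the 12 arrays of Freising, with filled symbols for pL2, open symbols for WT, circles, squares and triangles for arrays 1, 2 and 3 of a group, and a bar for each group mean. All 3 HFD arrays of pL2 are above chow in Il1b, Cxcl2 and Mmp3, but HFD array 2 is far above the other 2 (9.63, 8.52 and 8.12). They are also above chow in Ctsk, Retnla and Dnajb9, where HFD array 2 does not stand apart.

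The 12 MHC class II genes, which present antigen to helper T cells, were all above 0 (median 0.52), 5 had groups that did not overlap (6.73% of all genes) and 12 were highest in HFD array 2. Ciita, their master activator, read 5.11, 5.36 and 5.07 on chow and 5.50, 6.76 and 5.89 on HFD, 0.87 ± 0.31 higher and 0.52 without HFD array 2, while the median of the 12 genes was 0.20 without that array. All 11 MHC class I genes were also highest in HFD array 2, and their median was 0.28 with that array and 0.01 without it. All 9 T cell markers were above 0 with a median of 0.52, which was 0.03 without HFD array 2, the highest of the 6 arrays in 8 of them. Foxp3, which defines regulatory T cells, read 3.37, 4.01 and 3.03 on chow and 3.90, 5.37 and 4.0 on HFD, 0.95 ± 0.28 higher with a small overlap. Cd4 read 3.67, 3.28 and 3.0 on chow and 4.43, 4.37 and 3.98 on HFD, with no overlap and HFD array 1 the highest, and was 0.89 higher without HFD array 2. B and plasma cell markers were highest in HFD array 2 in only 2 of 9. Of 15 complement genes 7 did not overlap, against 6.73% of all genes. The median of the 15 was 0.60, and 0.36 without HFD array 2. C1qa, C1qb, C1qc and Itgam, which are also in the macrophage list, were each among the 7.

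Mast cell markers differed in which arrays were high. All 9 were above 0 with a median of 0.81 and none was at an unadjusted p below 0.05. None was highest in HFD array 2. In 6 of 9 HFD arrays 1 and 3 lay above every chow array, against 1871 of all 15242 genes. Mcpt1, a protease of mucosal mast cells, read 5.84, 7.69 and 7.02 on chow and 9.09, 7.50 and 8.91 on HFD. HFD arrays 1 and 3 were above all chow arrays and array 2 was within the chow range, with a difference of 1.65 ± 0.83 (adjusted p = 0.870). Without HFD array 2 it was 2.15 and the list's median was 1.21. In that fit 2 genes were higher at an unadjusted p below 0.05, against 444 of all genes. Without HFD array 1 the median was 0.44. Cma1, the chymase, was low in all arrays but did not overlap, with 3.56, 3.52 and 3.78 on chow and 4.34, 4.09 and 4.27 on HFD. In WT mice the median of the list was −0.24. The mean of the 9 genes was 5.11, 5.88 and 5.43 on chow and 6.77, 5.52 and 6.26 on HFD in pL2 mice, against 6.37, 6.37 and 6.67 on chow and 6.28, 6.13 and 6.36 on HFD in WT mice. All 3 pL2 arrays on chow were thus below all 6 WT arrays, and HFD arrays 1 and 3 reached the WT levels.

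Stromal lists moved with the chow arrays included. All 30 tested genes of matrix crosslinking and remodelling were above 0 (median 0.41), 9 at an unadjusted p below 0.05 (4.11% of all genes) and 7 without overlap (6.73%); chow array 1 was the highest chow array in 21. Without it the median was 0.69 and 15 genes were higher at that p, against 993 of all 15242 genes. Without HFD array 2 the median was 0.39 with 2 genes higher, against 444 of all genes, and without chow array 3 it was 0.28. Mmp12, the elastase of macrophages, read 4.54, 4.26 and 4.63 on chow and 5.15, 6.20 and 5.08 on HFD, 1.0 ± 0.31 higher. Mmp3, stromelysin, read 2.86, 3.15 and 2.61 on chow and 3.41, 8.12 and 3.62 on HFD, so its 2.18 ± 0.63 rested on HFD array 2 and was 0.64 without it.

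All 14 fibroblast markers were above 0, with a median of 0.55 and 1 gene without overlap, a share near the 6.73% of all genes. That gene was Lum, a proteoglycan that orders collagen fibrils, with 5.56, 4.79 and 4.30 on chow and 6.44, 5.94 and 5.76 on HFD, 1.17 ± 0.42 higher (adjusted p = 0.705). Its lowest HFD array was above the highest chow array, and HFD array 2 was not its highest. With all arrays 4 genes were higher at an unadjusted p below 0.05, against 627 of all 15242. Without chow array 1 the median was 0.74 with 8 genes higher at that p, against 993 of all genes, and without chow array 3 it was 0.31. Of 19 collagen genes 15 were above 0 (median 0.29) and 5 did not overlap, against 6.73% of all genes. The median was 0.42 without chow array 1 and 0.14 without chow array 3. Col5a1 and Col5a2 encode chains of collagen V, which starts fibrils of collagen I. Col5a1 read 6.13, 5.86 and 5.65 on chow and 6.36, 6.55 and 6.41 on HFD, 0.56 ± 0.20 higher, and Col5a2 was 0.65 ± 0.24 higher. Col14a1 was 1.15 ± 0.50 higher, also without overlap.

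Smooth muscle genes were above 0 in all 11, with a median of 0.85, but none was at an unadjusted p below 0.05 and none had groups without overlap. Des, desmin, read 11.30, 6.90 and 7.91 on chow and 10.26, 9.82 and 10.27 on HFD. Chow array 1 was the highest of all 6 in 11 of 11 genes and the other 2 chow arrays the lowest in Des, so the difference of 1.41 ± 0.91 was 2.71 without chow array 1. The median of the 11 genes was 1.61 without chow array 1 and 0.14 without chow array 2. Grem1, a BMP antagonist made by fibroblasts and muscle cells beneath the epithelium, followed the same order on chow (7.22, 4.42 and 5.50) and read 7.68, 8.56 and 7.18 on HFD, 2.10 ± 0.65 higher. Penk, a neuropeptide precursor also made by fibroblasts, read 6.88, 5.25 and 5.16 on chow and 7.69, 7.63 and 7.22 on HFD, 1.74 ± 0.47 higher and 2.30 without chow array 1. Enteric neuron and glia genes had a median of 0.46 (8 of 8 above 0), which was 0.97 without chow array 1. Without chow array 2 it was 0.26 and without chow array 3 it was 0.27. In a fit with the squamous and smooth muscle means as covariates, the fibroblast median was 0.32 in place of 0.55, the matrix median 0.24 in place of 0.41, the collagen median 0.20 in place of 0.29, the enteric neuron and glia median 0.18 and the median of 6 pericyte genes −0.10 in place of 0.43. The macrophage median was 0.85 and the Fc receptor median 0.95 in that fit.

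**Figure D4:**
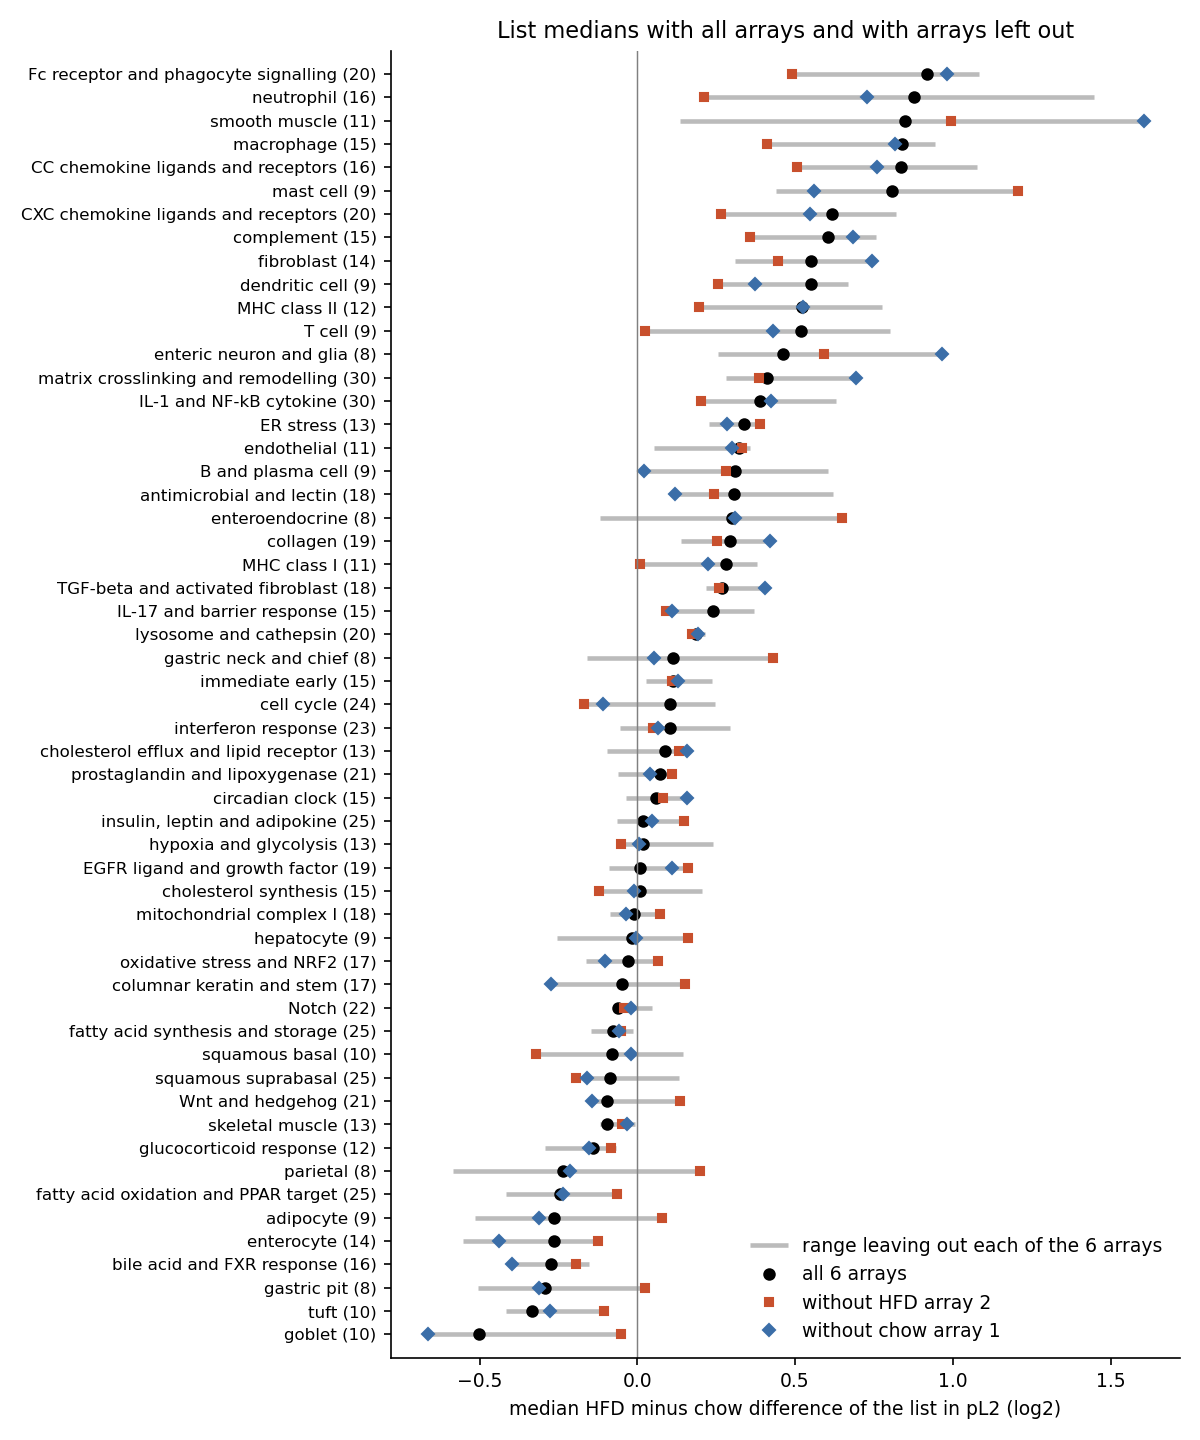
The median HFD minus chow difference (log2, x axis) of each list with at least 8 tested genes is drawn for all 6 arrays (black), without HFD array 2 (red square) and without chow array 1 (blue diamond), and the grey line spans the values when each of the 6 arrays is left out. The neutrophil median drops from 0.88 to 0.21 without HFD array 2, while the smooth muscle median goes from 0.85 to 1.61 without chow array 1.

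Endoplasmic reticulum stress genes, which help secretory cells fold proteins, were above 0 in 12 of 13, with a median of 0.34 that was 0.39 without HFD array 2 and 0.28 without chow array 1. Dnajb9, a co-chaperone induced when unfolded protein builds up, read 7.66, 7.74 and 7.50 on chow and 8.72, 8.61 and 8.20 on HFD. The groups were separate, the difference was 0.88 ± 0.24 (adjusted p = 0.553) and it was 0.83 without HFD array 2. In WT mice it was −0.07, with 8.61, 8.33 and 7.86 on chow, which overlaps with pL2 mice on HFD. Xbp1, the transcription factor of this response, was 0.31 ± 0.15 higher and Sdf2l1 0.72 ± 0.38 higher, both with overlap. HFD arrays 1 and 3 were above all chow arrays in 10 of the 13 genes, against 1871 of all 15242 genes. All 3 HFD arrays were above all chow arrays in 5 of the 13, against 6.73% of all genes.

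Squamous basal genes had a median of −0.08 with 5 of 10 above 0, and squamous suprabasal genes −0.09 with 10 of 25. Gastric pit genes were below 0 in 7 of 8 (median −0.29). Muc5ac was at −0.76 ± 0.30 (adjusted p = 0.752) with all arrays and at −0.17 without HFD array 2, and the list's median was then 0.03. Parietal cell genes, the acid pump among them, had a median of −0.23, which was 0.20 without that array. Gastric neck and chief cell genes had a median of 0.11, which was 0.43 without HFD array 2 and −0.16 without HFD array 1. Tuft cell genes were below 0 in 10 of 10 (median −0.33, and −0.10 without HFD array 2). Dclk1, which marks tuft cells, read 6.21, 6.35 and 6.16 on chow and 6.37, 5.35 and 6.19 on HFD. Only HFD array 2 was below chow, and without it the difference was 0.04 in place of −0.27.

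Enteroendocrine genes, which encode gut hormones and proteins of their secretory granules, had HFD array 2 as the lowest HFD array in 7 of 8. HFD arrays 1 and 3 were above all chow arrays in 5 of 8, against 1871 of all 15242 genes. Their mean was 7.06, 7.09 and 6.79 on chow and 7.74, 6.21 and 7.54 on HFD, so HFD array 2 lay below chow and the other 2 above it. The median difference was 0.30, with 5 of 8 above 0 and none at an unadjusted p below 0.05. Without HFD array 2 it was 0.65, with 8 of 8 above 0 and 3 higher at that p, against 444 of all 15242 genes. Without HFD array 1 it was −0.12. Ghrl, the precursor of the hunger hormone ghrelin, read 10.71, 11.02 and 10.55 on chow and 12.12, 9.76 and 11.32 on HFD, a difference of 0.31 ± 0.46 (adjusted p = 0.997) that was 0.96 without HFD array 2. Ghrl was chosen after its values were seen.

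The other genes that the study's crosses address did not differ detectably at this number of arrays. Lgr5, a receptor of stem cells, differed by 0.30 ± 0.47, and Nr1h4, the bile acid receptor FXR, by −0.17 ± 0.37. Notch1 differed by −0.16 ± 0.22 and Notch2 by −0.09 ± 0.22, all 4 at an adjusted p of 0.997. The lists that hold them had medians of −0.06 for 22 Notch genes and −0.05 for 17 columnar keratin and stem genes. Bile acid and FXR response genes were below 0 in 15 of 16 (median −0.27, and −0.19 without HFD array 2), with none at an unadjusted p below 0.05. The 10 goblet cell genes had a median of −0.50, which was −0.05 without HFD array 2 and −0.16 without chow array 3. The 14 enterocyte genes had a median of −0.26, which was −0.13 without HFD array 2 and −0.55 without HFD array 1. Chow array 3 was the highest in both means (7.30 and 6.53).

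Fatty acid oxidation genes and targets of PPAR, the receptors that respond to fatty acids, were above 0 in 6 of 25 with a median of −0.25, which was −0.06 without HFD array 2. Pdk4, which shifts mitochondria from glucose to fat, read 8.96, 8.41 and 9.03 on chow and 8.57, 6.26 and 7.71 on HFD. HFD array 1 overlapped with chow, and the difference was −1.29 ± 0.54 (adjusted p = 0.808) and −0.66 without array 2. In WT mice it was 0.89. Cpt1a, which admits fatty acids to mitochondria, read 10.34, 10.35 and 10.38 on chow and 10.32, 9.57 and 10.21 on HFD, a difference of −0.32 ± 0.20.

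Fatty acid synthesis and storage genes had a median of −0.08 (9 of 25 above 0) and adipocyte genes of −0.26, which was 0.08 without HFD array 2. Cholesterol efflux and lipid receptor genes, among them Msr1, had a median of 0.09 with 9 of 13 above 0, and of −0.10 without chow array 2. Cholesterol synthesis genes had a median of 0.01, with 8 of 15 above 0. Among the latter Fdft1, which makes squalene, read 9.93, 10.19 and 10.23 on chow and 10.57, 10.44 and 10.48 on HFD, a small difference of 0.38 ± 0.15 (adjusted p = 0.738) without overlap, and was −0.48 in WT mice. Genes of insulin, leptin and adipokine signalling had a median of 0.02. Igfbp4, which binds insulin-like growth factors, read 8.23, 8.20 and 7.63 on chow and 8.77, 8.84 and 8.79 on HFD. The 3 HFD arrays were nearly equal and above all chow arrays, by 0.78 ± 0.35 (adjusted p = 0.859).

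Secreted defence genes varied from gene to gene. Lyz1, the lysozyme of Paneth cells, read 6.25, 4.25 and 6.94 on chow and 9.17, 7.81 and 7.81 on HFD, 2.45 ± 1.10 higher (adjusted p = 0.859), and was −2.37 in WT mice. Mmp7, matrilysin, which also matures defensins, read 5.44, 4.76 and 5.58 on chow and 8.74, 6.01 and 6.57 on HFD, 1.85 ± 0.71 higher in pL2 and 1.11 higher in WT mice. In both genes HFD array 1 was the highest. Both belong to a list of 6 tested Paneth cell genes, whose median was 0.05 with 4 above 0. The 2 below 0 were Defa24 (−0.55 ± 1.51) and Pla2g2a (−0.12 ± 0.65). Defb1, an epithelial defensin, was 1.55 ± 0.59 higher and 0.84 higher without HFD array 2. Ptges, the synthase that makes prostaglandin E, read 5.21, 5.32 and 4.92 on chow and 5.97, 6.53 and 5.54 on HFD, 0.86 ± 0.29 higher without overlap, whereas the 21 prostaglandin and lipoxygenase genes had a median of 0.07.

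Genes lower on HFD were fewer and their differences smaller. Stard6, a lipid transfer protein, read 5.77, 5.03 and 5.38 on chow and 4.60, 4.21 and 4.29 on HFD. All HFD arrays were below all chow arrays, by −1.03 ± 0.29 (adjusted p = 0.584), while the WT difference was 0.64. Sapcd1 read 4.16, 3.80 and 4.16 on chow and 3.52, 3.53 and 3.54 on HFD, −0.51 ± 0.14 (adjusted p = 0.553). Kdm4a, a histone demethylase, read 8.10, 8.15 and 8.15 on chow and 7.54, 7.83 and 7.78 on HFD, a small difference of −0.42 ± 0.13. Abcc1, an efflux pump of glutathione conjugates, read 8.83, 8.80 and 8.78 on chow and 8.12, 8.59 and 8.37 on HFD, −0.44 ± 0.14. In Kdm4a and Abcc1 the chow arrays were almost equal. Bcar1, an adaptor of integrin signalling, was at −0.60 ± 0.19.

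The largest lower values included enzymes that process esters and foreign compounds. Ces1h, a carboxylesterase, read 6.89, 6.70 and 6.41 on chow and 4.39, 6.38 and 4.93 on HFD. HFD array 2 was here the one closest to chow, and the difference of −1.43 ± 0.54 (adjusted p = 0.738) was −2.0 without it. Gsto2, a glutathione transferase, read 4.75, 5.56 and 5.77 on chow and 4.67, 3.50 and 3.92 on HFD, −1.33 ± 0.47. Adh7, the alcohol and retinol dehydrogenase of the upper gut, read 9.72, 9.89 and 9.86 on chow and 9.70, 7.22 and 9.49 on HFD, so that its −1.02 ± 0.37 was −0.23 without HFD array 2. Clca4b was at −1.39 ± 1.82, and this rested on chow array 3 alone (5.90 against 2.26 and 2.62).

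The diet differences of pL2 and WT mice share no array, and the difference between them was tested for every gene. Limma called 3 of 15242 genes (0.0197%), Gm20234, Mx1 and Slfn4, and in all 3 the diet difference lay mainly in WT mice. In a limma fit of the Freising arrays alone none was called (smallest adjusted p = 0.216). Mx1, an antiviral gene induced by interferon, read 3.52, 3.71 and 3.31 on chow and 2.50, 3.21 and 3.16 on HFD in pL2, against 5.95, 6.70 and 6.0 on chow and 3.05, 3.50 and 3.77 on HFD in WT mice. The difference of differences was 2.22 ± 0.34 (adjusted p = 0.00147). In pL2 mice Mx1 lay below the array medians of 4.03 to 4.27 on both diets, so a fall as large as that in WT mice could hardly show. None of the phagocyte, chemokine or matrix genes described above was called in this test, so their diet difference in pL2 is not shown to differ from that in WT mice. For Selp the difference of differences was 1.85 (adjusted p = 0.643) and for Foxp3 it was 1.50 (adjusted p = 0.313).

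The 23 tested interferon response genes averaged 5.22, 5.49 and 4.94 on chow and 4.96, 5.45 and 5.52 on HFD in pL2. In WT mice they averaged 6.97, 7.72 and 7.12 on chow and 5.32, 5.23 and 5.79 on HFD. The pL2 arrays on both diets were below all WT arrays on chow and overlapped with WT mice on HFD, and the median diet difference was 0.10 in pL2 and −1.96 in WT mice.

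**Figure D5:**
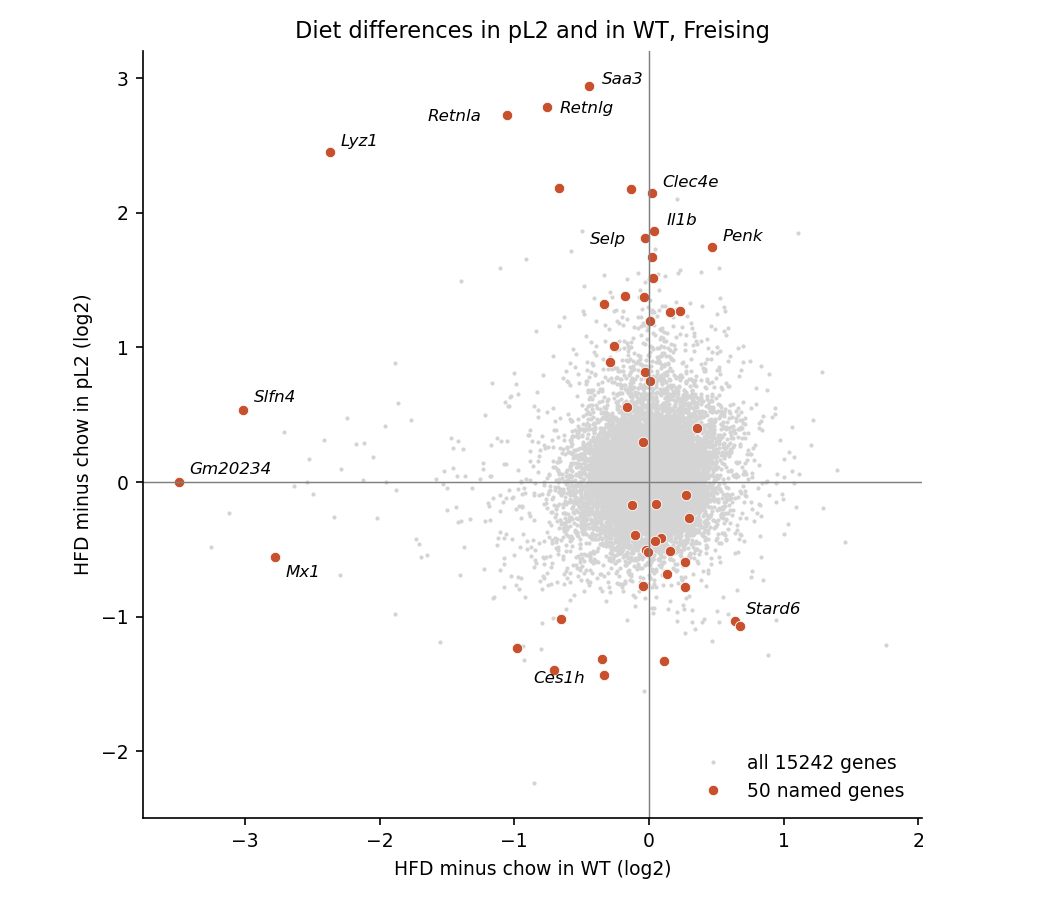
The HFD minus chow difference in WT mice (log2, x axis) is plotted against that in pL2 mice (log2, y axis) for 15242 genes in grey and 50 named genes in colour. Genes such as Saa3 and Retnla lie high with WT values at or below 0 (−0.44 and −1.06), and Gm20234, Mx1 and Slfn4 lie far to the left with pL2 values of 0.00, −0.55 and 0.53.

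Genes picked by the transgene on other arrays were then followed under the diet. In the arrays from MRI, 1568 genes were called higher in pL2 than in WT mice (10.3%) and 1944 lower (12.8%). On HFD at Freising the first set had a median difference of 0.01, with 809 of 1568 above 0, against 0.02 and 52.8% for all genes. The second set had a median of 0.12, with 1327 of 1944 above 0. The median of these 1944 genes was 0.28 without chow array 1 and 0.03 without chow array 2. With the squamous and smooth muscle covariates, and the genes picked again in that fit, it was −0.01. The median thus moved with which chow arrays were included and with these covariates.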

How the data were processed

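Signals were measured with Affymetrix arrays, 1 per sample. The deposited values are log2 signals per probe set, made by the authors with RMA in Affymetrix Expression Console, per the submitters' processing notes; versions and the genome build of the probes are not given in the sources used here. Of 34390 entries, the 23521 with 1 gene symbol were used (1814 had several, 9055 none), with the entry of highest mean per symbol (22180 symbols). The test took the 15242 genes that exceeded their array's median in 3 or more of the 48 arrays. Array medians lay between 4.03 and 4.27 (log2), and the number of arrays limits the precision.

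Group means of all 16 groups were fitted together with limma 3.58.1 in R 4.3.3, two-sided with Benjamini-Hochberg adjustment over all genes tested; errors are its standard errors and share 1 estimate of spread over all groups. The procedure was tested on simulated data. Genes and 63 lists (31 of cell types, 32 of pathways, with 895 of 969 listed genes on the array) were chosen with earlier results of these data known. Some genes are in more than 1 list, so the lists are not independent. Genes named are 10 study genes, the 12 of smallest p and the 8 of largest non-overlapping difference per direction, up to 4 of smallest p per list, and genes called between genotypes; predicted and clone-named genes were left out of the ranked parts. Outside this rule, Krt13, S100a8 and Spi1 and the genes so marked in the text were chosen after their values were seen. Alternatives were other filters, entries, samples, weights, moderation, scaling and covariates, and leaving out each array. Promoter windows are from RefSeq (GRCm38.p6).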

Additional observations from a re-analysis of the deposited data

Results flagged for a closer look

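Mx1 (2.22 ± 0.34, adjusted p = 0.00147), Slfn4 (3.55 ± 0.65, adjusted p = 0.0187) and Gm20234 (3.49 ± 0.51, adjusted p = 0.000938) differed between the genotypes in their diet difference by limma's test of that difference. None of them was called in a fit of the Freising arrays alone. Slfn4 read 5.61, 6.19 and 6.18 on chow and 5.33, 8.24 and 6.00 on HFD in pL2 mice, and 7.25, 7.92 and 7.25 on chow and 4.65, 4.17 and 4.56 on HFD in WT mice. Gm20234 read 4.26, 3.76 and 3.80 on chow and 3.23, 4.43 and 4.17 on HFD in pL2 mice, and 6.16, 7.84 and 7.24 on chow and 3.56, 3.74 and 3.46 on HFD in WT mice. In pL2 mice Gm20234 lay near the array medians of 4.03 to 4.27 and Mx1 below them, which leaves little room for a fall on HFD.

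Entry 17548199 was 1 of 10869 probe set entries with no gene symbol or with several, which were tested without the filter. It showed a signal outside the named genes that the comparisons use. The entry read 3.71, 3.69 and 3.66 on chow and 4.59, 5.06 and 4.64 on HFD in pL2 mice. Its chow values lay below the array medians of 4.03 to 4.27, so its difference is taken against a low signal. The difference was 1.08 ± 0.18 (limma adjusted p = 0.00941 over these 10869 entries and 0.0245 over all 34390 entries). In WT mice the difference was 0.29, and the difference of differences was 0.79 (adjusted p = 1.0).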

How the results depend on the processing

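No paired analysis was possible because the labels give no replicate numbers or pairing. For HFD in pL2 mice, limma called 0 genes with averaged entries, with no filter or a stricter one, in the compared groups alone, in the Freising arrays alone, with trended robust moderation, cyclic loess, the covariates, and also without HFD array 2 and chow array 1 together. It called 224 with array weights, whose estimate did not reach its tolerance, 1 with weights estimated gene by gene (added after seeing the data, as were the entries fit and the fit without both arrays), 1 over all probe set entries, and 0 to 1 when an array was left out. For the difference between genotypes it called 0 in the compared groups alone, 545 with array weights, 280 with gene-by-gene weights and 2 to 5 when an array was left out; 5 was without WT chow array 1, and 2 were called without HFD array 2, without chow array 1 or without WT HFD array 2. With the genes picked again in each fit, the median of those lower in pL2 mice at MRI ranged from 0.0224 to 0.29 when an array was left out. It was 0.35 without HFD array 2 and chow array 1. Of 47 study and ranked genes 41 kept their sign in every one of 17 settings. Of 1070 list medians over settings 62 moved beyond the replicate spread, in 21 lists. Of these lists 7 moved with the covariates and 2 without HFD array 2. This spread was the standard deviation of the list mean over the HFD arrays of pL2 mice, array 2 included. Because HFD array 2 itself widens it, the count of 2 cannot show how far the lists depend on that array. The neutrophil median went from 0.88 to 0.21 without HFD array 2, against a spread of 1.25, and was not counted. The T cell median went from 0.52 to 0.03, against a spread of 0.58, and was not counted either. No called value changed sign, but the main fit for HFD in pL2 mice called 0 genes, so only values called in an alternative could.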

Other observations

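Cell cycle genes, 24 tested, had a median diet difference of 0.10 in pL2 mice with 17 above 0, and −0.17 without HFD array 2. In WT mice their median was −0.30. Circadian clock genes, 15 tested, had a median of 0.06 in pL2 mice, with 0 genes at an unadjusted limma p below 0.05, and of 0.72 in WT mice. B and plasma cell markers were above 0 in 9 of 9 in pL2 mice with a median of 0.31, which was 0.02 with 6 of 9 above 0 without chow array 1 and 0.60 without chow array 2. Lysosome and cathepsin genes were above 0 in 18 of 20 (median 0.18), and 5 of 20 did not overlap against 6.73% of all genes. Hypoxia and glycolysis genes (median 0.02), oxidative stress genes (−0.03) and complex I genes (−0.01) were near 0.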
